A study of Mus musculus with 6 samples.

Results

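The genes described here encode the insulin receptor and its closest relatives, the ligands of the insulin-like growth factor (IGF) system, the insulin receptor substrate (IRS) adaptors and the protease that degrades insulin, in mammary cells of pregnant mice with and without deletion of the insulin receptor gene. They were chosen by exact gene symbol, Insr, Igf1r, Igf2r, Insrr, Irs1, Irs2, Irs4, Igf1, Igf2 and Ide. These 10 genes had 11 of the 28853 probe sets on the Affymetrix MoGene 1.0 ST array, 2 of them for Insr. All mice carried the floxed insulin receptor allele on both chromosomes (IRfl/fl). The 3 control mice, called Cre- and numbered 1, 2 and 4, had no Cre recombinase, and the 3 mice called Cre+, numbered 5, 6 and 7, expressed Cre from the BLG promoter, that of the milk protein gene beta-lactoglobulin. Females were mated with CD1 males and killed on day 13.5 of pregnancy, and mammary cells were released with collagenase, 1 array per mouse. The BLG promoter is used by secretory epithelium, so other cells of the digest would keep the floxed gene intact. There was no group with Cre and without the floxed allele, and the labels do not state the ages of the mice.

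Insulin and the IGFs act through receptor tyrosine kinases that phosphorylate IRS adaptors, which in turn recruit phosphatidylinositol 3-kinase. Insr binds insulin, and Igf1r, built on the same plan, binds IGF1 and IGF2. Igf2r belongs to a different family, captures IGF2 for degradation and carries mannose 6-phosphate-tagged enzymes to lysosomes. In the mammary gland this signalling supports alveolar growth and secretory differentiation.

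The promoter sequences are shown for the second receptor whose transcript fell, Igf2r, and for the 3 IRS genes, because they share a hexamer. RefSeq sequence of build GRCm38.p6, 250 bases before to 50 after each annotated start, was matched by symbol for 8 of the 10 genes, in 11 windows. Insr and Insrr had no window and were not searched. The hexamer CACGTG, a palindrome known as an E-box, was found in 4 of these windows, those of Igf2r, Irs1, Irs2 and Irs4. The Igf2r stretch (chr17:12769707-12769814, minus strand) ends at the base before the start, with CACGTG in capitals:
Igf2r: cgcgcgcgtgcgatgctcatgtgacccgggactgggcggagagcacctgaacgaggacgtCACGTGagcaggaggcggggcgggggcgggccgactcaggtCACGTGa
In the 3 IRS stretches (Irs1, chr1:82291537-82291564; Irs2, chr8:11008956-11008983; Irs4, chrX:141725354-141725381; all minus strand) the capitals mark CACGTG and TGTTTTG:
Irs1: gaggctccgtCACGTGTTTTGctcctct
Irs2: aacgcagagtCACGTGtTGTTTTGctct
Irs4: aggcgacggtCACGTGtTGTTTTGccca
In Irs1 the motifs overlap, and in Irs2 and Irs4 a single base lies between them. Searched on both strands of 32851 windows of the same length, CACGTG was in 7.15%, at 2 or more places (as in Igf2r) in 0.594%, and TGTTTTG in 6.28%. CACGTG with TGTTTTG starting 1 to 10 bases after the first base of CACGTG, on the same strand, was in 9 windows (0.0274%). Of these, 3 are those of Irs1, Irs2 and Irs4. These motifs were chosen after the sequences had been read, and a match describes letters, not binding.

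After robust multi-array averaging (RMA) the array medians lay between 28.4 and 29.3 linear intensity units, and no probe set lay below 18.7. Probe sets that named 1 gene and had a mean log2 intensity at or above 4.48 (22.4 linear units) were tested, 16921 in all. A call is an adjusted p under 0.05 in limma, and 4.17% of the tested probe sets were called, 2.03% higher and 2.14% lower in Cre+ cells. Of the 10 genes, 8 passed the intensity filter. With 3 arrays against 3 the smallest exact permutation p is 0.1, and the number of arrays limits the precision of every value.

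Insr, the targeted gene, was lower in Cre+ cells at both of its probe sets. At probe set 10576692 its intensity was 106 in Cre- 1, 104 in Cre- 2 and 122 in Cre- 4, against 55.2 in Cre+ 5, 47.7 in Cre+ 6 and 71.2 in Cre+ 7. Every Cre+ array lay below every Cre- array, and Cre+ 7 retained the highest level of its group. On the log2 scale Insr fell by 0.95 (SE 0.15, 95% interval -1.30 to -0.60, n = 3 and 3, adjusted p = 0.0231), which left 51.9% of the control level. Only 0.556% of tested probe sets had a change of at least this size in either direction.

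Probe set 10576696 gave 80.4, 77.6 and 86.7 in Cre- 1, 2 and 4, and 56.2, 53.6 and 61.2 in Cre+ 5, 6 and 7. The groups were again separate, and the arrays stood in the same order as at the first probe set. Insr fell here by 0.52 (SE 0.09, 95% interval -0.73 to -0.31, adjusted p = 0.0285), which left 69.8%. The fall was larger at 10576692 than at 10576696 by 0.43 log2 units (exact permutation p = 0.1, two-sided). The within-array difference between them was 0.40, 0.42 and 0.49 in Cre- cells and -0.03, -0.17 and 0.22 in Cre+ cells. The labels do not say which exon was floxed or which exons each probe set covers. The gap between the probe sets could therefore not be set against the deleted exon, and its cause was not tested. In a digest of several cell types, fewer cells that express a gene and less RNA per cell cannot be told apart. Leaving out Cre- 2, Cre- 4, Cre+ 5 or Cre+ 6 ended the call at both Insr probe sets, with adjusted p between 0.0602 and 0.0909 at 10576692 and between 0.0766 and 0.106 at 10576696, while the change stayed between -1.11 and -0.82 and between -0.57 and -0.47 over all 6 omissions.

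**Figure D1:**
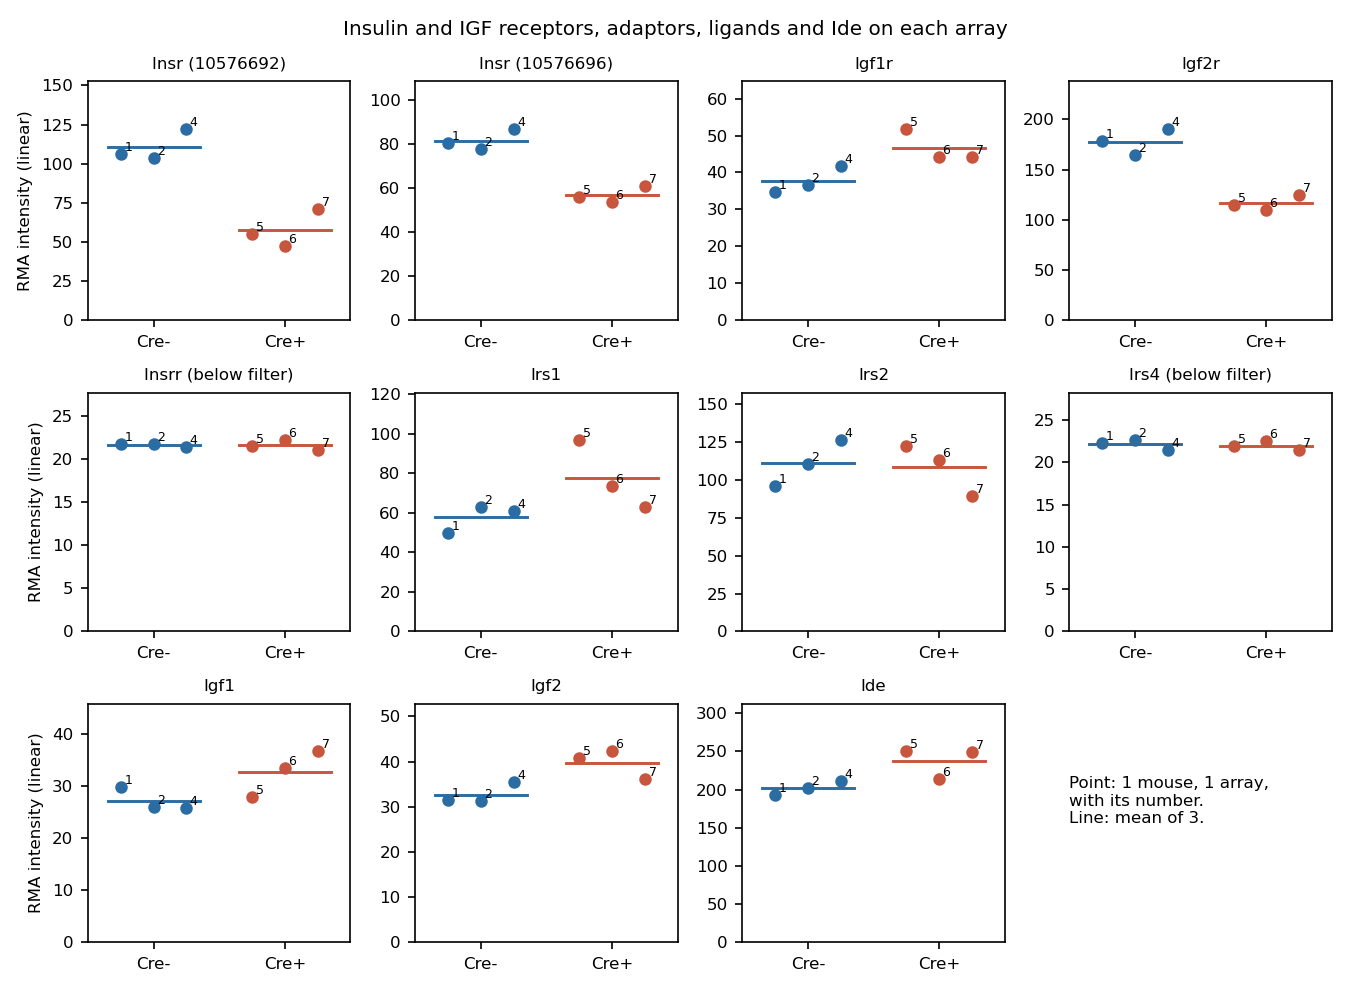
RMA intensity (linear units, each vertical axis from 0) of the 11 probe sets on the 6 arrays, blue for Cre- and red for Cre+, numbered by mouse, with a line at the mean of 3. Both Insr probe sets and Igf2r are lower on every Cre+ array, Igf1r, Igf2 and Ide are higher on every Cre+ array, and Insrr and Irs4 stay near 22.

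Of the 7 tested genes other than Insr, 1 was called, lower in Cre+ cells, and none was called higher. The shares over all tested probe sets were 2.14% lower and 2.03% higher. The called gene was Igf2r. Its intensity was 178, 165 and 190.2 in Cre- 1, 2 and 4, and 115, 109 and 125 in Cre+ 5, 6 and 7. The highest Cre+ value was well below the lowest Cre- value. Igf2r fell by 0.61 (SE 0.09, 95% interval -0.82 to -0.40, adjusted p = 0.0190), 1.53-fold, a change reached in size by 2.51% of tested probe sets. The authors' deposited table gives Igf2r a ratio of 0.65 with an unadjusted p of 0.0021, and the Insr probe sets ratios of 0.52 and 0.70. As for Insr, leaving out Cre- 2, Cre- 4, Cre+ 5 or Cre+ 6 ended the call (adjusted p between 0.0522 and 0.0874), with the change between -0.66 and -0.56 over the 6 omissions.

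From high to low, the arrays stood in the same order for Igf2r as for both Insr probe sets, namely Cre- 4, 1, 2, then Cre+ 7, 5, 6. The mean log2 level of 14 luminal alveolar markers followed this order too, with Cre- 1 and Cre- 2 almost level (9.801 and 9.798). It was 9.80, 9.80 and 9.95 in Cre- 1, 2 and 4 and 8.83, 8.73 and 8.90 in Cre+ 5, 6 and 7, and 11 of these markers fell while none rose. Averaged likewise, the other luminal list (Spint1, Cldn4, Epcam and further structural genes) ranked the arrays differently. Its order was Cre- 4, Cre- 2, Cre+ 5, Cre+ 6, Cre- 1, Cre+ 7. The share of all tested probe sets with the Insr order is not given here. The part of the alveolar cells in the Insr and Igf2r values was not tested. The probe sets whose profiles over the 6 arrays, each centred on its mean, lay nearest to Insr 10576692 by root-mean-square distance were those of Gjb6 (0.09 log2 units), Fam46c (0.09), Cp (0.10), Chrdl2 (0.12) and Ankrd22 (0.12). Igf2r had as its nearest Abhd5 (0.04), Inpp5k (0.04), Csn3 (0.05), Hnrnph2 (0.05) and Insr 10576696 (0.05). Csn3 is the gene of kappa-casein, a milk protein. All 10 of these probe sets were called lower in Cre+ cells, against 2.14% of all tested probe sets. They were picked for likeness to profiles that were themselves called lower, so this follows largely from the choice.

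The other receptor of the kinase family, Igf1r, moved the opposite way to Insr but did not pass the test. Its intensity was 34.8, 36.6 and 41.8 in Cre- 1, 2 and 4, and 51.7, 44.1 and 44.2 in Cre+ 5, 6 and 7. The groups did not overlap, although Cre- 4 came close to the lower Cre+ arrays. The log2 change was 0.31 (SE 0.10, 95% interval 0.07 to 0.54, adjusted p = 0.143). With 16 units taken off every intensity before log2, an alternative for a constant that may have been added before deposit, the Igf1r change was 0.50 (adjusted p = 0.136).

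Insrr, the insulin receptor-related receptor, an orphan relative that responds to alkaline pH, lay below the intensity filter. Its values ran from 21.4 to 21.9 in Cre- cells and from 21.1 to 22.2 in Cre+ cells, overlapping throughout. Without the filter its change was -0.0048 (95% interval -0.06 to 0.05).

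Irs1, an adaptor of both receptors, had the larger spread of Irs1 and Irs2 in Cre+ cells and the smaller in Cre- cells. Its intensity was 49.7, 62.8 and 60.9 in Cre- 1, 2 and 4, and 96.8, 73.8 and 62.8 in Cre+ 5, 6 and 7. Cre+ 5 stood highest, and Cre+ 7 lay marginally below Cre- 2, so the groups overlapped. The change was 0.41 (SE 0.17, 95% interval 0.02 to 0.80, adjusted p = 0.226). It ranged from 0.24 without Cre+ 5 to 0.56 without Cre+ 7.

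Irs2, the adaptor that carries much of the insulin response in liver, differed little between the groups. It gave 95.9, 110.4 and 126 in Cre- 1, 2 and 4 and 122, 113 and 89.3 in Cre+ 5, 6 and 7, with wide overlap. The change was -0.04 (SE 0.15, 95% interval -0.38 to 0.30, adjusted p = 0.929), an interval that still allows a change of about the size seen for Igf1r. Irs4, an adaptor with restricted expression, was below the filter, between 21.4 and 22.6 on all 6 arrays. Its change without the filter was -0.0094 (95% interval -0.07 to 0.05).

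**Figure D2:**
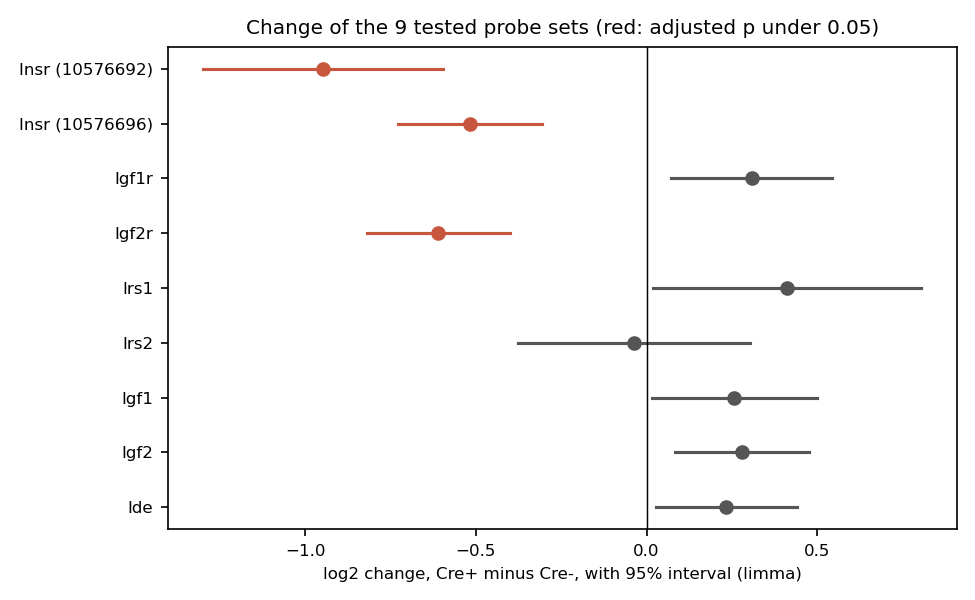
Log2 change (Cre+ minus Cre-) of the 9 tested probe sets with the 95% interval of the limma fit on 3 and 3 arrays, red where the adjusted p was under 0.05. Both Insr probe sets and Igf2r lie left of 0, Irs2 spans 0, and Igf1r, Irs1, Igf1, Igf2 and Ide lie right of 0 without passing the adjusted threshold.

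The ligand Igf1, made mainly by liver and by stromal cells, had intensities of 29.7, 25.9 and 25.9 in Cre- 1, 2 and 4, and 27.8, 33.4 and 36.6 in Cre+ 5, 6 and 7. Cre- 1 lay above Cre+ 5, so the groups overlapped. The change was 0.26 (SE 0.10, 95% interval 0.01 to 0.50, adjusted p = 0.222). It was 0.55 (adjusted p = 0.218) with 16 taken off every intensity. With the mean of the T and B cell markers as a covariate it was 0.31 and passed (adjusted p = 0.0174).

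Igf1 ranked the 6 arrays in the order of the mean fibroblast and of the mean adipocyte markers, Cre+ 7, Cre+ 6, Cre- 1, Cre+ 5, Cre- 2, Cre- 4. For Igf1 the last 2 were almost level (25.93 in Cre- 2 and 25.85 in Cre- 4). How many tested probe sets have this order is not given here. The mean log2 level of 12 fibroblast markers ran from 5.46 to 6.37 in Cre- cells and from 6.25 to 6.61 in Cre+ cells, and 2 of the 12 rose. That of 12 adipocyte markers ran from 5.58 to 5.79 and from 5.66 to 6.16, and none of the 11 tested passed. The part of these cells in the Igf1 values was not tested.

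Igf2, an imprinted growth factor, gave 31.6, 31.2 and 35.4 in Cre- 1, 2 and 4 and 40.7, 42.3 and 36.2 in Cre+ 5, 6 and 7. All Cre+ arrays were higher, Cre+ 7 by a narrow margin over Cre- 4. The change was 0.28 (SE 0.08, 95% interval 0.08 to 0.48, adjusted p = 0.116). It was 0.51 (adjusted p = 0.116) with 16 taken off, and it passed with array weights, at 0.32 (adjusted p = 0.0406).

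H19, the non-coding RNA of the same imprinted domain on chromosome 7, is reciprocally imprinted with Igf2. Its intensity was 33.9, 37.2 and 33.0 in Cre- 1, 2 and 4, and 51.8, 47.8 and 50.4 in Cre+ 5, 6 and 7. The groups lay clearly apart. H19 rose by 0.53 (SE 0.08, 95% interval 0.35 to 0.71, adjusted p = 0.0190), and by 0.87 with 16 taken off. Leaving out Cre- 2, Cre- 4, Cre+ 5 or Cre+ 6 ended the call (adjusted p between 0.0514 and 0.0832). A second probe set, which names H19 together with Mir675, differed by 0.03 with overlapping groups. At the Igf2r locus the imprinted antisense transcript Airn, named here after its values were seen, changed by -0.01 (SE 0.08, adjusted p = 0.971). Of the 10 tested imprinted growth genes, H19 was the 1 that rose and none fell, where 2.03% of all tested probe sets were called higher. The list median was 0.15 against 0.0037 over all tested probe sets. Cdkn1c (0.36), a cell cycle inhibitor, and Ndn (0.27), the necdin gene, did not pass.

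**Figure D3:**
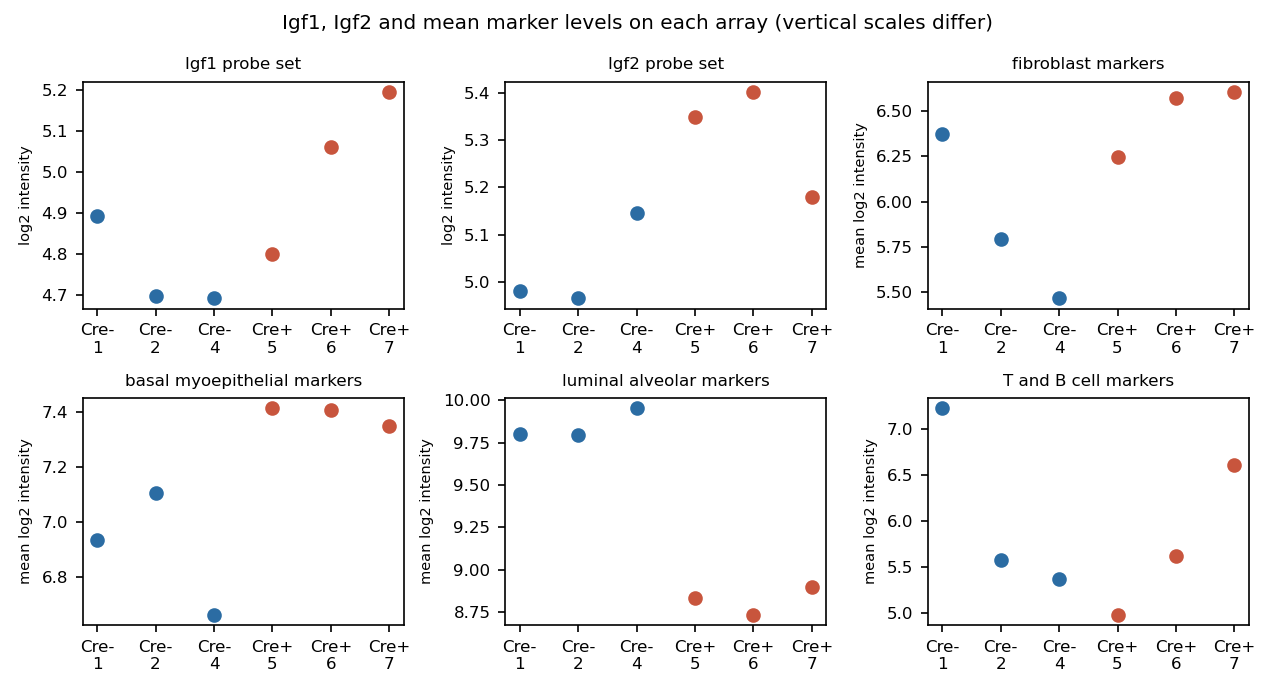
Log2 intensity of Igf1 and Igf2 and the mean log2 intensity of 4 marker lists on each array, blue for Cre- and red for Cre+, with vertical scales that differ between panels and do not start at 0. Igf1 and the fibroblast markers rank the arrays alike, basal markers are higher and luminal alveolar markers lower on all Cre+ arrays, and T and B cell markers are highest in Cre- 1 and Cre+ 7.

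Ide encodes insulin-degrading enzyme, a metalloprotease that cleaves insulin and other small peptides. Its intensity was 192, 202 and 212 in Cre- 1, 2 and 4 and 250.2, 214 and 249.7 in Cre+ 5, 6 and 7. All Cre+ arrays were higher, Cre+ 6 only just above Cre- 4. The change was 0.23 (SE 0.09, 95% interval 0.03 to 0.44, adjusted p = 0.194). Ide and Igf1r ranked the 6 arrays in the same order, which rests on near ties. Cre+ 5 and Cre+ 7 were almost level for Ide, and Cre+ 7 and Cre+ 6 for Igf1r (44.20 and 44.11). The share of all tested probe sets with this order is not given either.

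Whether the related genes changed with Insr was asked within each array, from the difference between each gene and Insr 10576692. The change of Igf1r exceeded that of Insr by 1.26 log2 units, with a 95% interval of 0.71 to 1.80 from least squares. The excess was 1.36 for Irs1 (0.46 to 2.26), 0.91 for Irs2 (0.07 to 1.75), 1.21 for Igf1 (0.67 to 1.74), 1.23 for Igf2 (0.57 to 1.88) and 1.18 for Ide (0.82 to 1.54). For these 6 genes no interval reached 0, and each had an exact permutation p of 0.1, the smallest possible. Igf2r exceeded Insr 10576692 by 0.34 (0.01 to 0.66, adjusted p = 0.0488 by least squares). With variances moderated over all probe sets the interval was -0.10 to 0.77 (adjusted p = 0.132). The second Insr probe set, 10576696, itself exceeded 10576692 by 0.43 (0.11 to 0.75, adjusted p = 0.0264 by least squares). The fall of Igf2r (0.61) thus lay between those of Insr at 10576692 (0.95) and at 10576696 (0.52). Comparison with 10576692 says little that is particular to these genes. It was passed by 91.8% of all probe sets by least squares and by 98.0% with moderated variances, and every difference shares the error of Insr.

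Taking the 7 tested genes other than Insr as a group, 5 had a change above 0 and 2 below, where 51.6% of all tested probe sets lay above 0. Their median was 0.26 against 0.0037 for all tested probe sets. The Cre+ and Cre- arrays did not overlap for 4 of them, 3 higher and 1 lower, where 25.7% of all tested probe sets did not overlap (12.9% higher, 12.7% lower). An unadjusted p under 0.05 was found for 6 of the 7, the exception being Irs2, against 20.0% of all tested probe sets. The authors' deposited table gave Igf2r and Igf2, 2 of the 7, a p under 0.05, against 16.9%.

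IGF-binding proteins hold IGFs outside the cell, and proteases release them again. Of 12 tested genes of IGF-binding proteins and their proteases, 3 rose, 1 fell and 8 did not pass, with a list median of 0.26. Among all tested probe sets 2.03% were called higher and 2.14% lower. Igfals, the acid-labile subunit that holds IGFs in a ternary complex with an IGF-binding protein, had intensities of 256, 281 and 359 in Cre- cells and 150.1, 142 and 109.6 in Cre+ cells. It fell by 1.15 (SE 0.16, adjusted p = 0.0164), 2.22-fold. Pappa, a metalloprotease that frees IGF from its binding proteins, went from 32.3, 32.3 and 31.3 to 60.6, 49.9 and 47.7. It rose by 0.71 (SE 0.10, adjusted p = 0.0165). Igfbp6, which prefers IGF2, rose by 0.60 (SE 0.09, adjusted p = 0.0190), and Igfbp3, the main carrier in serum, rose by 0.49 (SE 0.09, adjusted p = 0.0314), the latter named as the fourth gene of the list after its values were seen. No gene of this list rose or fell without Cre- 2 or without Cre+ 6. In the omission of Cre- 4, and likewise of Cre+ 7, 1 rose and 1 fell. Without Cre+ 5, 1 rose and none fell, and without Cre- 1, 5 rose and 1 fell. Igfals passed in 3 of the 6 single omissions and Pappa in 4. On the same arrays the mean log2 level of 14 basal myoepithelial markers ran from 6.66 to 7.10 in Cre- and from 7.35 to 7.41 in Cre+ cells, 6 of them higher by the test. The part of basal or fibroblast cells in these rises was not tested.

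Of 35 tested partners of the receptors and IRS adaptors, 2 rose, none fell and 33 did not pass, with a median of -0.02. Over all tested probe sets 4.17% were called, so this count is near the background. Enpp1, a membrane phosphodiesterase that inhibits the insulin receptor, gave 59.1, 58.1 and 57.5 in Cre- cells and 76.7, 78.0 and 86.7 in Cre+ cells. It rose by 0.46 (SE 0.08, adjusted p = 0.0313). Cav1, the caveolin that forms membrane caveolae in which insulin receptors can reside, rose by 0.73 (SE 0.14, adjusted p = 0.0366). Dok1, an adaptor related to the IRS proteins, changed by -0.38 (SE 0.08, adjusted p = 0.0519), with no overlap between the groups. Each of the 2 rises passed in 1 of the 6 single omissions, that of Cre- 1. With Cre- 1 and Cre+ 7 left out together 1 of the list rose and 2 fell.

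The second function of Igf2r, sorting of lysosomal enzymes, was followed through 22 tested genes, of which 2 fell, none rose and 20 did not pass. Their median was -0.11, and 2.14% of all tested probe sets were called lower. Ctsd, the cathepsin D gene and a cargo of this route, had 1033, 943 and 942 in Cre- cells and 773, 749 and 718 in Cre+ cells. It fell by 0.38 (SE 0.07, adjusted p = 0.0337). Gga2, an adaptor that packs mannose 6-phosphate receptors into carriers, fell by 0.43 (SE 0.08, adjusted p = 0.0369). Sort1, the sortilin gene, a receptor for part of the same cargo, changed by -0.48 (adjusted p = 0.115). Neither fall was called when any single array was left out, and both were lost with Cre- 1 and Cre+ 7 left out together, when 1 other gene rose.

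Of 7 tested genes of receptor processing and insulin peptides, 1 fell, none rose and 6 did not pass, with a median of -0.03. The share of all tested probe sets called lower was 2.14%. The gene that fell was Ctsl, a lysosomal cathepsin. It had 358, 289.9 and 314 in Cre- cells and 162, 149 and 166 in Cre+ cells. The fall of 1.01 (SE 0.10, adjusted p = 0.00556), 2.01-fold, was called whichever array was left out. Furin, the protease that cleaves the insulin and IGF1 proreceptors, changed by -0.26 (adjusted p = 0.149), and Pitrm1, a mitochondrial protease of the family of Ide, by 0.26 (adjusted p = 0.130). The insulin genes are named although their p was not among the 3 smallest. Ins1 was below the filter, and Ins2, at 24.5 to 25.8 on all 6 arrays, changed by -0.03 (adjusted p = 0.619).

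**Figure D4:**
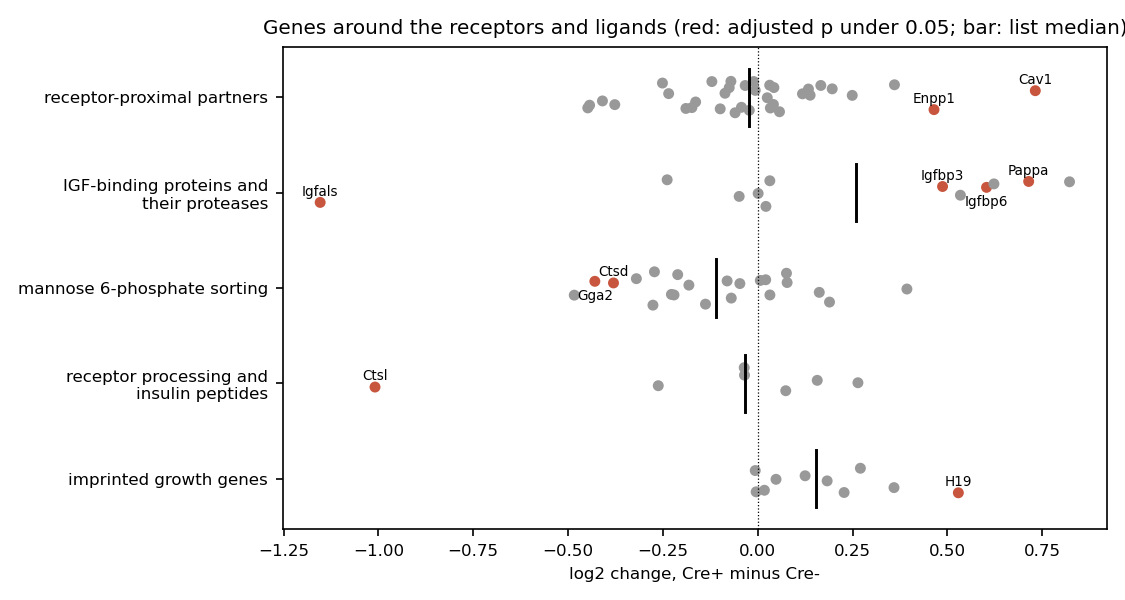
Log2 change (Cre+ minus Cre-) of each tested gene in 5 lists around the receptors and ligands, 1 point per gene, red and named where the adjusted p was under 0.05, with a bar at the list median. Igfals and Ctsl lie farthest left, and Cav1, Pappa, Igfbp6, H19, Igfbp3 and Enpp1 are the red points right of 0.

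The labels call the cells mammary alveolar cells, and other cell types were present. As background for the counts below, 2.03% of all tested probe sets were called higher and 2.14% lower. Of 14 luminal alveolar markers the smallest p belonged to Lalba (-3.69), Slc34a2 (-1.17) and Mfge8 (-1.07), all lower in Cre+ cells and genes of milk or its secretion. Only 4 of them fell with Cre+ 6 left out, 5 with Cre+ 5 left out and 6 with Cre- 2 left out. None of 11 tested genes of luminal epithelial structure passed, with Spint1 at -0.62, Cldn4 at -0.46 and Epcam at -0.38, and 4 fell without Cre- 1 and 5 with Cre- 1 and Cre+ 7 left out together. Among basal markers Snai2 (1.04), Trp63 (0.67) and Mylk (0.78) rose, and no basal marker rose without Cre+ 5 or Cre+ 6, 3 rose without Cre- 1, and 2 without Cre- 2, Cre- 4 or Cre+ 7. Among fibroblast markers Mfap5 (0.75) and Fn1 (0.98) rose and Dcn (0.97) did not pass, with 8 rises without Cre- 1, 1 without Cre+ 7 and none without Cre- 2, Cre- 4, Cre+ 5 or Cre+ 6. Of the adipocyte markers Lpl (-0.53), Car3 (2.26) and Cfd (1.16) had the smallest p, and Car3 stood at 293 in Cre+ 6 and 303 in Cre+ 7 against 54.7 in Cre+ 5. Without Cre+ 5, 2 adipocyte markers rose, without Cre- 1, 1 rose, and without Cre+ 7, 1 fell. None of 10 endothelial markers passed (Emcn 0.50, Tie1 0.43, Tek 0.34). Of 12 macrophage markers C1qc (0.75) and C1qb (0.68) rose and Cd163 (0.17) did not pass, with no rise without Cre- 2, Cre+ 5, Cre+ 6 or Cre+ 7 and 1 without Cre- 4. None of 13 T and B cell markers passed (Cd79b -0.90, Ms4a1 -0.61), and their mean log2 level was 7.22 in Cre- 1 and 6.61 in Cre+ 7 against 4.98 to 5.62 on the other arrays. With that mean level as a covariate, 1776 of the 16921 tested probe sets were called in place of 706, and the marker counts moved too. Under it 7 endothelial markers rose, 7 genes of luminal epithelial structure fell, 9 fibroblast and 5 macrophage markers rose, 10 basal markers rose and 1 fell, 12 alveolar markers fell, and 2 adipocyte markers rose and 1 fell. Of the lists around the receptors, 3 receptor-proximal partners rose and 3 fell, 5 genes of IGF-binding proteins and their proteases rose and 1 fell, 1 sorting gene rose and 4 fell, 2 genes of receptor processing fell, and 3 imprinted growth genes rose.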

How the data were processed

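Total RNA of collagenase-isolated mammary cells from 6 mice was measured on 6 arrays. The intensity of each probe set was deposited by the authors as an RMA value over core exons from Expression Console, per the labels. No label or header names the software version, genome build or annotation. The deposited values are linear (18.7 to 10919), and log2 was taken first. The deposited ratio, per the file headers a fold change, equals the Cre+ mean over the Cre- mean within 0.01 for 100% of probe sets. The deposited p-value column is, per the file headers, from the authors' test per probe set.

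Probe sets naming 1 gene (22984 of 28853) with a mean log2 at or above the 30th percentile were fitted with limma 3.58.1 in R 4.3.3 (lmFit, eBayes with intensity trend), with two-sided p-values adjusted over 16921 probe sets by Benjamini-Hochberg. Changes are Cre+ minus Cre- on the log2 scale, and their SE and 95% interval are moderated. Within-array differences from Insr were fitted alike. Because all of them share the error of Insr, least squares without moderation was added after those results were seen. Groups come from sample titles. The labels name no batch.

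Named were the 10 genes, the 3 genes with the smallest p in each of 13 lists (a gene's brightest probe set stood for it), and 5 nearest profiles for Insr and for Igf2r. A gene that this rule names is not reported here. Others are said to be chosen after their values were seen, except that every called gene of the 5 lists around the receptors is named. The genes and lists were chosen with earlier results of these data known. The fit was tested on simulated data. Alternatives changed the filter, a constant offset, the scaling, the variance model, array weights, a marker covariate and the arrays used.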

Additional observations from a re-analysis of the deposited data

How the results depend on the processing

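With 3 arrays a group, calls rested on single arrays more than sizes did. The count of called probe sets was 706, between 46 (without Cre+ 5) and 781 when 1 array was left out, 1437 with array weights and 1776 with the T and B cell covariate. It stayed within 1.5 times of 706 under the other 8 settings. The fall of Insr at 10576692 ranged from -1.11 to -0.82, at 10576696 from -0.57 to -0.47 and that of Igf2r from -0.66 to -0.56 over the 6 omissions. Each lost its call in 4 of them and kept it under all 10 other settings. The number of other genes called lower was between 0 and 1 over the omissions, and that called higher was 0 over the omissions, 1 with array weights (Igf2) and 1 with the T and B cell covariate (Igf1). Irs2, uncalled, ranged from -0.14 to 0.10 over the omissions, above 0 without Cre- 4 (0.06) and without Cre+ 7, and was 0.014 with array weights. The change of Igf2r minus that of Insr 10576692, 0.34, ranged from 0.25 to 0.44 over the omissions and passed without Cre+ 7. It also passed by least squares at 0.34. For the other genes minus Insr, the ranges were 1.15 to 1.45 for Igf1r, 1.16 to 1.66 for Irs1, 0.74 to 1.20 for Irs2, 1.05 to 1.30 for Igf1, 1.05 to 1.45 for Igf2 and 1.12 to 1.30 for Ide, with the same call. The difference between the Insr probe sets, -0.43, was between -0.53 and -0.34 over the omissions and -0.52 with 16 taken off. Apart from the smaller number of arrays in the omissions, the cause of these shifts was not tested. No paired analysis was possible because the Cre- and Cre+ mice share no replicate number.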
